A study of Mus musculus with 16 samples.

Results

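The lists of m6A peaks from the 6 libraries of mice with arterial occlusion were set against both lists from sham-operated mice, to see which stretches of RNA were called as methylated after occlusion and not in Sham, and the reverse. The 169564 peaks of the 8 lists were joined into 52776 regions wherever peaks shared an exonic base on one strand. A region held by at least 5 of the 6 occlusion lists and by neither Sham list is called occlusion-side here, and 528 regions met that rule. A region held by both Sham lists and by at most 1 of the 6 occlusion lists is called Sham-side, and 518 regions met that rule.

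All mice were male C57BL/6J mice of 6 to 8 weeks, with 6 mice in each surgery group. In the MCAO/R groups a nylon filament closed the middle cerebral artery for 2 h and was then withdrawn for 0, 6 or 24 h of reperfusion (groups Re-0 h, Re-6 h, Re-24 h), while Sham mice had the operation without the filament. Each group gave 2 IP and 2 input libraries of peri-infarct cortex, and the labels place the 6 occlusion libraries in one ischemia-reperfusion group. Whether a library came from 1 mouse or from a pool was not stated, so the spread between libraries may be technical. The 8 input libraries were not analysed here, and a difference in RNA abundance therefore cannot be told apart from one in methylation. The lists hold no read counts and the depth behind them is unknown. A peak is either listed or not, and its score serves only to rank it within its own list, as a percentile (the percent of peaks of that list with a lower score).

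N6-methyladenosine (m6A) is laid down on messenger RNA by a nuclear complex around Mettl3 and Mettl14, mostly within the short context written RRACH, and is frequent near stop codons and in long internal exons. Reader proteins of the Ythdf family bind the mark and affect the stability and translation of the transcript, and the demethylases Fto and Alkbh5 can remove it. In the peri-infarct cortex, cells are damaged but still alive, and they switch on stress, inflammatory and repair genes while the blood supply returns. In MeRIP-seq, RNA fragments are pulled down with an antibody against m6A, and a peak is a stretch where pulled-down reads exceed those of the input.

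The stretches below are those that the comparison turns on, shown to let the sequence context of the peaks be read. Each one, except that of Bag2, is the part of the region that the largest number of its peaks shared. All are read 5′ to 3′ on the transcript strand from GRCm39 with the exonic parts joined. Capitals mark the motif RRACH, in which AC follows a pair of purines (each G or A) and precedes any base except G, so that GGACT is one of its forms. On each side, the first 5 coding regions of the order by lists and ranks that share a stretch of 50 to 300 bases are shown. Regions with shorter or longer shared stretches (Pcdhgc5, Shld3 and mt-Nd4, and Sel1l for Sham) are passed over. On the occlusion side they lie in Eloa (chr4:135738639-135740249, minus strand), Jph1 (chr1:17167491-17167540, minus), Pcnx4 (chr12:72613955-72616511, plus), Syne1 (chr10:5198078-5198127, minus) and Tnfrsf21 (chr17:43398672-43398721, plus). Coding regions of Sema3a (chr5:13649141-13649390, plus) and Pecam1 (chr11:106579792-106579866, minus) and a 30-base site in the 3' UTR of Bag2 (chr1:33785534-33785563, minus) are given with them because these genes recur in the results. The Bag2 site is a part of a shared stretch of 200 bases (chr1:33785440-33785639) that holds 4 RRACH.
Eloa: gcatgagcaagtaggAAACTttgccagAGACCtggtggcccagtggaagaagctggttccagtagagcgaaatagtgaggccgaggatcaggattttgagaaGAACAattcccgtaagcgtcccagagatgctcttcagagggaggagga
Jph1: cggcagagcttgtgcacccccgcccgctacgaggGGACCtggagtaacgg
Pcnx4: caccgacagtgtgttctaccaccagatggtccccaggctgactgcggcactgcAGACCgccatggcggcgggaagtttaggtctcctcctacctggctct
Syne1: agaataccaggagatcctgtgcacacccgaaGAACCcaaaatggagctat
Tnfrsf21: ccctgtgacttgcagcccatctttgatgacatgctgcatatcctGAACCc
Sema3a: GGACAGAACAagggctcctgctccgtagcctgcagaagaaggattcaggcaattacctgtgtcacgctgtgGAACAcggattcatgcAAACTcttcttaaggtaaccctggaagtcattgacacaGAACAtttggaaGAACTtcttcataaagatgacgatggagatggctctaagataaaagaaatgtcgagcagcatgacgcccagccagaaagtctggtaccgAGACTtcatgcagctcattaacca
Pecam1: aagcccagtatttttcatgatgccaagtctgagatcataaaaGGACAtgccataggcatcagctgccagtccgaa
Bag2: tccagtgttggcAGACAcaggtaacactta

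On the Sham side the 5 regions chosen in the same way lie in Ppp1r9a (chr6:5157015-5158175, plus strand), Fam193a (chr5:34621472-34623015, plus), Gpd2 (chr2:57257383-57257457, plus), Slc8a1 (chr17:81956942-81956991, minus) and Rcan2 (chr17:44328792-44331853, plus). Those of Epha4 (chr1:77483761-77483835, minus) and the heat shock gene Hspa1a (chr17:35189316-35189440, minus) are added because these genes are described below. The shared stretches of Slc8a1 and Hspa1a hold no RRACH.
Ppp1r9a: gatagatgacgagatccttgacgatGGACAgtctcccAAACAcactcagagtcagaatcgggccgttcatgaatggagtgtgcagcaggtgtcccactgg
Fam193a: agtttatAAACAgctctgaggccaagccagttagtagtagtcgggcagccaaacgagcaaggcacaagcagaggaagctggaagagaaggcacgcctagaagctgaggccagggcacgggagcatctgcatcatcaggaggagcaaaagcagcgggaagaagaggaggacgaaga
Gpd2: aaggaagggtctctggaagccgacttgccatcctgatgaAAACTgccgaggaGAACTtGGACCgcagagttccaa
Slc8a1: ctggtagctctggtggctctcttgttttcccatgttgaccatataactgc
Rcan2: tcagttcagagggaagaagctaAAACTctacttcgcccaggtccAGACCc
Epha4: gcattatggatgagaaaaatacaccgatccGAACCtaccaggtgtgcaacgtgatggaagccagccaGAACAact
Hspa1a: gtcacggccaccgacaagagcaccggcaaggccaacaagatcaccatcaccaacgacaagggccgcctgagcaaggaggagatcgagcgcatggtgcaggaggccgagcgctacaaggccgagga

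Within windows of 100 exonic bases at the centre of the regions, searched on the transcript strand, RRACH was found in 85% of 512 occlusion-side windows, in 78% of 504 Sham-side windows and in 81.4% of 50077 windows over all regions. GGAC alone was found in 38.7%, 36.3% and 38.3% of the same windows. Both sets thus held the motif about as often as the regions in general, and a match in a window does not show where the methylated base lies.

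Of the 528 occlusion-side regions, 138 were held by all 6 occlusion lists and 390 by 5 of them, and a further 834 regions that were in neither Sham list fell just outside the rule with 4 occlusion lists. Occlusion-side regions were 12.7% of the 4171 regions held by 5 or 6 of the 8 lists. Of the 518 Sham-side regions, 196 were in no occlusion list and 322 in 1, and 413 regions of both Sham lists were just outside with 2 occlusion lists. Sham-side regions were 4.54% of the 11418 regions held by 2 or 3 lists. By contrast, 4735 regions were in all 8 lists, and 21839 regions were in a single occlusion list and in no other.

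**Figure D1:**
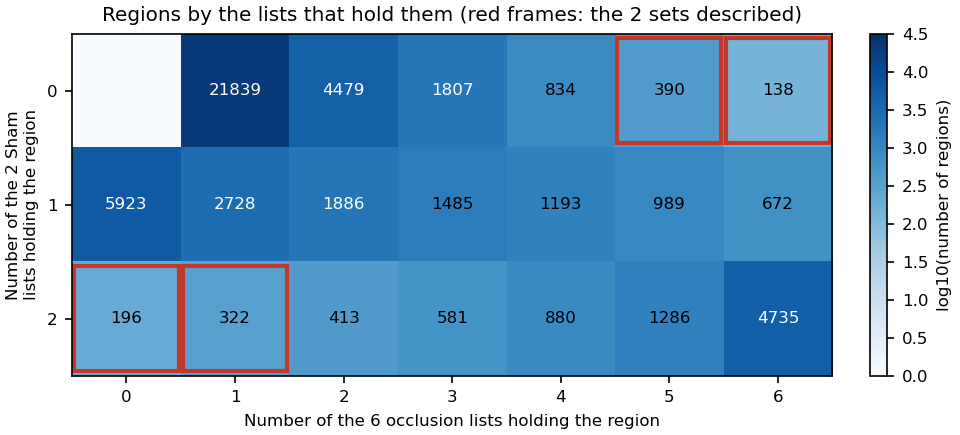
Number of regions by how many of the 6 occlusion lists (x axis) and of the 2 Sham lists (y axis) hold them, with colour on a log10 scale. The framed cells are the 528 occlusion-side regions (390 and 138) and the 518 Sham-side regions (196 and 322), both small beside the 4735 regions in all 8 lists.

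The same rule was applied to each of the other 27 ways of setting 2 of the 8 libraries apart. The count of 528 for the Sham pair was exceeded by 2 pairs that join a Sham library with an occlusion library, Sham replicate 1 with Re-0 h replicate 1 (537 regions) and Sham replicate 1 with Re-24 h replicate 1 (530 regions). The other 27 pairs ranged from 114 to 537 regions with a median of 267, and the difference did not exceed that between libraries (one-sided exact permutation test over 28 choices, p = 0.107, smallest possible p 0.0357). Pairs of a single occlusion group gave 215 regions at 0 h, 238 at 6 h and 491 at 24 h, so Re-24 h was set apart nearly as often as Sham. Libraries of one occlusion group shared fewer absences than the Sham pair at every time, but the mixed pairs show that Sham replicate 1 and the first replicates of Re-0 h and Re-24 h lacked many regions in common.

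The length of the lists moved with these counts. The Sham pair held 38927 peaks, 3 other pairs held fewer, and over the 28 pairs, which share libraries, the number of regions absent from a pair was lower where the pair held more peaks (Spearman's rho = -0.922, Pearson's r = -0.91, given as a description). With the same number of top-scoring peaks taken from every list, 395 regions were occlusion-side, and the Re-24 h pair (435 regions) was the only one above (one-sided exact permutation test, p = 0.0714). Without Re-0 h replicate 1 and with 4 of 5 occlusion lists required, the count was 940, the highest of 21 choices, at the smallest p that this number of choices allows (one-sided exact permutation test, p = 0.0476). Leaving out any other library gave p between 0.0952 and 0.286 in the same exact test. Counts rose in each case because fewer lists had to match, to 1244 and 1473 without Sham replicate 1 or 2 and to 882 without Re-24 h replicate 1.

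The reverse count was not high. The other 27 pairs held 388 to 1123 regions of their own with a median of 669, and 23 of them exceeded the 518 of the Sham pair (one-sided exact permutation test, p = 0.857). Pairs of one occlusion group had 879 regions at 0 h, 1092 at 6 h and 750 at 24 h. Here too the number followed the length of the lists (Spearman's rho = 0.896, Pearson's r = 0.906 over the 28 pairs), in the opposite direction. Without Sham replicate 1 or 2, when a single Sham list sufficed, the counts were 5138 and 4549.

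**Figure D2:**
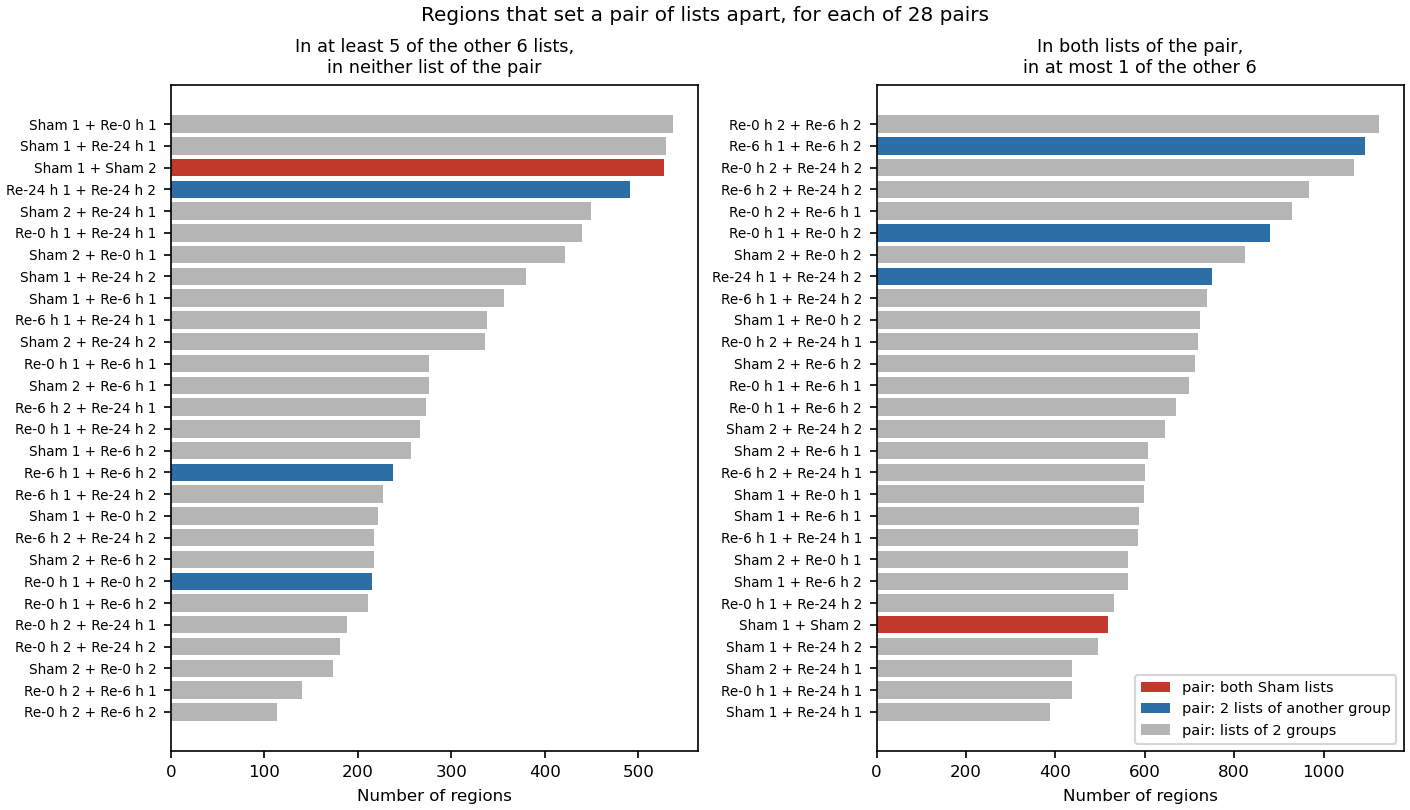
Number of regions (x axis) absent from a pair of lists but in at least 5 of the other 6 (left), and in both lists of a pair but in at most 1 of the other 6 (right), for each of the 28 pairs (y axis, library and replicate number). The Sham pair (red) is the third highest on the left with 528 and among the lowest on the right with 518.

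No time point stood out among the occlusion-side regions. Missing from the 390 regions of 5 lists were Re-0 h replicates 1 and 2 in 113 and 34 cases, Re-6 h in 58 and 33, and Re-24 h in 87 and 65. The first replicate was the one missing more often at every time, and the 3 first replicates also had the shorter lists. For the occlusion-side regions the median score percentile was 41 and 48.1 at 0 h, 47.8 and 51.5 at 6 h, and 46.6 and 53.9 at 24 h, so the replicates of a group differed as much as the groups. Over all regions the medians of these lists were 50.6 to 52, and the occlusion-side median was the lower one in 4 lists, most of all in Re-0 h replicate 1 (41 against 52), and the higher one in the second replicates of Re-6 h and Re-24 h. Only 62 of the 528 regions (11.7%) reached a percentile of 50 in every list that held them. Of the 322 Sham-side regions with an occlusion list, 62 and 76 were held at 0 h, 44 and 60 at 6 h, and 29 and 51 at 24 h.

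The occlusion-side regions were spread over 500 genes, of which 27 held 2 or more, and the Sham-side regions over 486 genes, of which 29 did. Sdk2, a synaptic adhesion protein, had 3 occlusion-side regions, and Syne1, the nuclear envelope spectrin-repeat protein nesprin-1, had 4 Sham-side regions. A total of 479 occlusion-side and 484 Sham-side regions lay in protein-coding genes. The sets met in 30 genes, 6% of the genes with an occlusion-side region and 6.17% of those with a Sham-side region, among them Syne1, Akap12, Sel1l, Kmt2a, Kmt2e, Ntrk2, Il6st and Tjp1. In these genes one stretch was listed after occlusion and another stretch of the same gene in Sham. A peak of the opposing lists lay within 100 bases, counted along the exons of the gene's coding transcripts, of 117 occlusion-side regions (22.2%) and of 211 Sham-side regions (40.7%), where a shifted peak and a lost one cannot be told apart.

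In part of the genes there was no opposing peak at all. For 122 occlusion-side regions (23.1%) the gene had no peak in either Sham list, and for 19 Sham-side regions (3.67%) it had none in any of the 6 occlusion lists. The second condition asks for 6 empty lists and the first for 2, so the shares are given side by side only.

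Of the 15 occlusion-side regions that led the order, all in protein-coding genes and in all 6 occlusion lists, the first lay in the coding sequence of Eloa, which encodes elongin A, a subunit of a transcription elongation factor. Its percentiles were 81.8 and 84.5 at 0 h, 79.9 and 82.8 at 6 h, and 90.1 and 89.1 at 24 h. Neither Sham list held it, though a Sham peak lay 25 exonic bases away, and the gene had 2 and 1 peaks in the Sham lists against 3 to 6 in the occlusion lists. The region of Add2, the membrane skeleton protein beta-adducin, lay in the 3' UTR (chr6:86097078-86097127) with percentiles of 79.4, 80.2, 76.6, 79.3, 78.6 and 75 in the same order of lists. Add2 had no peak at all in Sham, and its 6 values were among the most even of the leading regions. Jph1, a junctophilin that ties the plasma membrane to the endoplasmic reticulum, had a coding region at 85.6, 87.8, 83.4, 86, 82.8 and 72.8, beside 4 and 2 other peaks in the Sham lists.

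Shld3, a subunit of the shieldin complex of DNA repair, had a coding region with 350 shared bases (chr13:104310803-104311152). Its percentiles were 63.8 and 71.8 at 0 h, 88.9 and 91.1 at 6 h, and 82.4 and 86 at 24 h. Both 0 h lists lay below the 4 later ones, a pattern given without a test because the genes were chosen from these values. Bag2, a co-chaperone of Hsp70 proteins, had a region in its 3' UTR with 61 and 64.3 at 0 h, 79.6 and 82.3 at 6 h, and 62.8 and 68.4 at 24 h, where both 6 h lists were the highest and the 0 h and 24 h values overlapped. Neither gene had any peak in a Sham list. The mitochondrially encoded complex I subunit mt-Nd4 (chrM:10227-10251) had percentiles of 70.1, 65.8, 78.9, 85.6, 62.5 and 88.7, with 1 Sham peak 50 bases away. The remaining leading regions were in Tnfrsf21 (death receptor 6), Atg12 (an autophagy conjugate), Pggt1b (a subunit of a protein prenyltransferase), Pcdhgc5 (a gamma protocadherin), Hnrnph2 (an RNA-binding protein), Syne1, Pcnx4, Zfp386 and Pdxdc1. Among them, the lowest percentile in any list was 54.5, in Tnfrsf21 and in Zfp386, against 75 for Add2.

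The Sham-side order was led by regions of no occlusion list at all. The coding region of Ppp1r9a, the actin-binding synaptic scaffold neurabin-1, stood at percentiles of 94.6 and 92.6 in the 2 Sham lists, although other peaks of the gene were in every list (7 and 4 in Sham, 3 to 5 after occlusion) and the nearest occlusion peak was 81 bases away. Sel1l, part of the machinery that disposes of misfolded proteins of the endoplasmic reticulum, stood at 91.9 and 90.4, with the nearest occlusion peak 1250 bases off. Both were among the strongest peaks of the Sham lists. Gpd2, the mitochondrial glycerol-3-phosphate dehydrogenase, had 84.8 and 85, Slc8a1, the sodium-calcium exchanger NCX1, had 93.4 and 83.7, and Rcan2, a regulator of calcineurin, had 89.1 and 82.6. The Slc8a1 region adjoined an occlusion peak, whereas the one of Rcan2 was 1427 bases from the nearest. Others of the 15 lay in Fam193a, Aak1 (a kinase of clathrin-mediated endocytosis), Apc, Dab1 (the reelin adaptor), Akap12, Srrm2 (a splicing protein), Prrc2c, the histone acetyltransferase Kat6b and Pdxdc1, with percentiles from 77 for Pdxdc1 to 93.2 for Prrc2c.

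**Figure D3:**
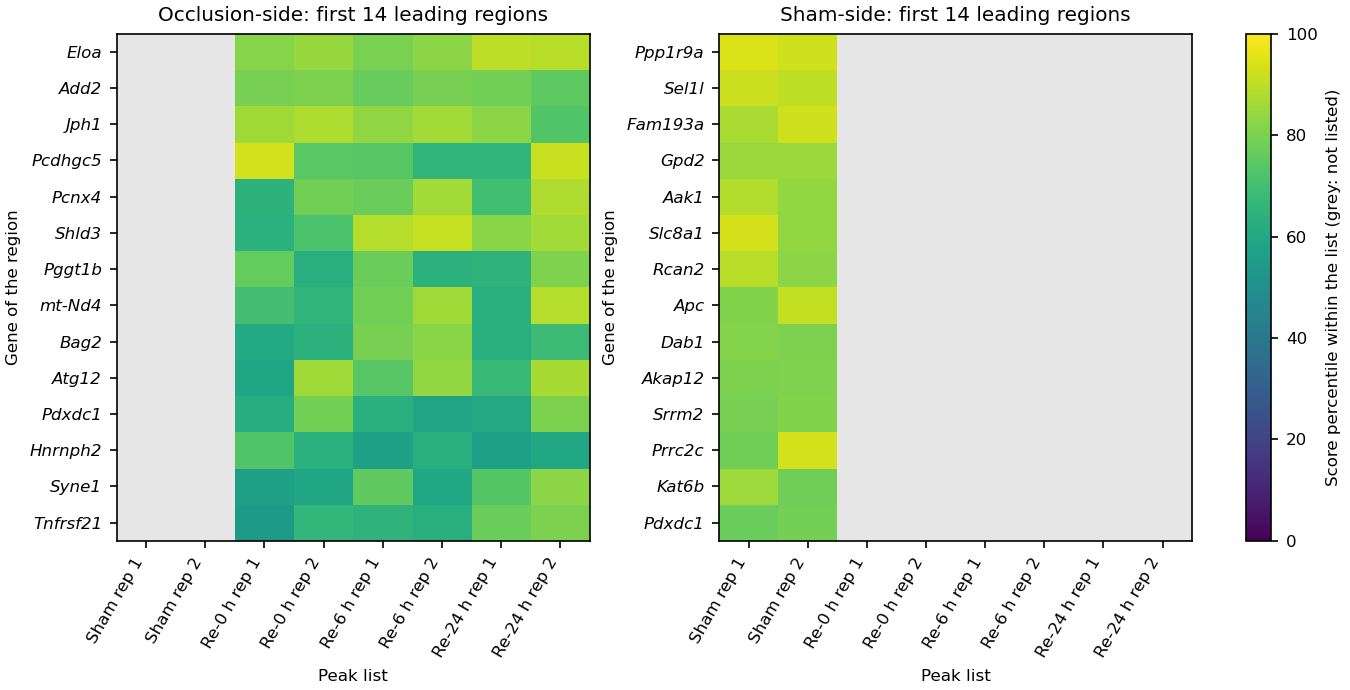
Score percentile (colour) of the first 14 leading occlusion-side regions (left) and Sham-side regions (right) in each of the 8 peak lists (x axis), with the gene of each region on the y axis. Grey cells mark lists without the region, so the left block is grey in Sham and the right block in all 6 occlusion lists, as the rule requires, and Add2 shows even values from 75 to 80.2.

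Some genes were listed on one side as a whole. Of 14001 genes with a peak in any list, 279 had a peak somewhere on their exons in at least 5 of the 6 occlusion lists and in neither Sham list, which is 1.99% of the genes, and 85 of these, 73 of them protein-coding, were in all 6. The reverse held for 117 genes, or 0.836%, of which 44, 36 of them protein-coding, had no peak in any occlusion list. Only 115 of the 279 genes (41.2%) held an occlusion-side region, since peaks of different lists can lie at different places of one gene. The count of 279 was exceeded by 1 of the other 27 pairs, Sham replicate 1 with Re-0 h replicate 1 (304 genes; one-sided exact permutation test, p = 0.0714), and the others ranged from 41 to 304 with a median of 123. The reverse count lay below that of 25 pairs (p = 0.929 in the same exact test). Among the higher-scoring 50% of the peaks, the Sham pair had 198 such genes, the highest of the 28 choices, followed by 188 (one-sided exact permutation test, p = 0.0357, the smallest possible), an alternative that was added after the lists were seen. Without Re-0 h replicate 1, 447 genes made the highest of 21 counts (p = 0.0476 in the same exact test, the smallest possible), and without Sham replicate 1 or 2 there were 651 and 865. The reverse count was 676 and 558 without Sham replicate 1 or 2, 187 without Re-0 h replicate 2 and 176 without Re-6 h replicate 1.

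Of the 410 genes of 12 gene lists that had a peak, 6 (1.46%) were of the reverse kind, against 0.836% of all genes. They included 2 of 27 heat shock and unfolded protein genes (7.41%) and 2 of 57 chromatin and histone-modifying genes (3.51%). Of the same 410 genes, 13 (3.17%) were of the first kind, against 1.99% of all genes, so both shares lay above those of all genes. By list these 13 were 3 of 28 hypoxia and vascular genes (10.7%), 2 of 28 p53 target and cell death genes (7.14%), 3 of 59 axon guidance genes (5.08%), 1 each in 5 lists and 0 in the other 4. The counts of both kinds are too small to read a theme from. Atf3, a transcription factor of the stress response that is induced early in injured neurons, had no peak in Sham and 1, 3, 2, 2, 2 and 3 peaks in the occlusion lists. A region in its 3' UTR (chr1:190903193-190903242) was in all 6, with percentiles of 23.5 and 19.7 at 0 h, 85.9 and 77.8 at 6 h, and 40.2 and 42.1 at 24 h. In this region the 6 h lists were the highest, but another Atf3 peak of Re-0 h replicate 2 stood at 73.3, near the 77.8 of Re-6 h replicate 2. The region was picked out after its values were seen, each time has 2 libraries, and its course was not tested. Ppp1r15a (GADD34), which brings back translation after stress by directing the dephosphorylation of eIF2 alpha, had no Sham peak and 4, 1, 1, 1, 2 and 1 peaks. Its peaks did not fall on a common stretch, the most widely shared region being in 3 lists.

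The cell death genes of this kind were Birc3, an inhibitor of apoptosis, with 1, 2, 3, 2, 3 and 5 peaks, and Zmat3, an RNA-binding p53 target, with 1, 1, 1, 2, 1 and 2. Neither had a peak in Sham, and the Zmat3 peaks shared no stretch in more than 3 lists. The Birc3 peaks shared an occlusion-side region in 5 lists, at percentiles of 6.56 and 36.4 at 0 h, 69.5 and 65.7 at 6 h, and 58.4 in Re-24 h replicate 1. Other genes of this kind were Thbs1 (thrombospondin-1), with 4, 3, 3, 1, 1 and 1 peaks, Tgfb1, with 1, 2, 1, 1, 1 and 1, Adamts4 (an aggrecan-cleaving protease), with 3, 2, 1, 2, 1 and 2, and Prg4 (lubricin), with 3, 5, 2, 4, 5 and 4. The 3' UTR region of Thbs1 was in all 6 lists at widely different ranks, from a percentile of 2.2 to 71.2, and the Tgfb1 peaks ranked low, at 26.1 or below in every list. Irf3, Nlrx1 and Peli2 act in innate immune signalling and Fyb1 is an adaptor of immune cells, and these 4 genes also had a peak in all 6 occlusion lists and in no Sham list. Adamts4, Prg4 and these 4 genes are in none of the gene lists and were picked out after their values were seen. The peaks of Nlrx1 and those of Tgfb1 shared no stretch in more than 2 lists.

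Of the genes in all 6 lists, Dlg2 (the postsynaptic scaffold PSD-93) had 2, 2, 2, 2, 2 and 1 peaks after occlusion and none in Sham, the serotonin receptor gene Htr2c had 2, 2, 1, 1, 1 and 1, and Lgi4, a secreted protein of myelinating glia, had 2, 2, 1, 2, 3 and 3, the last 2 genes being likewise outside the lists. The peaks of Dlg2 and those of Htr2c shared no stretch in more than 3 lists, and those of Lgi4 none in more than 4. In 5 of the 6 occlusion lists were Adm (adrenomedullin), missing at Re-0 h replicate 1, the leukocyte adhesion receptor Icam1, missing at Re-24 h replicate 1, and Pecam1, the endothelial adhesion molecule CD31, missing at Re-6 h replicate 1. Each was missing from a first replicate. Cd14, a co-receptor for bacterial lipopolysaccharide, Zfp36, which destabilises cytokine messages, Plat, the tissue plasminogen activator, the Src-family kinase Lyn and the Notch ligand Jag1 were likewise in 5 lists and not in Sham, and were picked out after their values were seen.

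In the reverse direction, Stat3, the transcription factor of cytokine signalling and glial reactivity, had 1 peak in each Sham list and none in any occlusion list. The 2 Sham peaks ranked at percentiles of 29.3 and 37.7 and did not share a base, so Stat3 is a gene of this kind without a Sham-side region. The Hsp110 chaperone gene Hsph1 had 2 and 1 peaks in Sham, at percentiles of up to 78 and 70.3, with a shared region at 51.2 and 70.3, and none after occlusion, and St13, a partner of Hsc70, had 1 and 1 with a shared region in its 5' UTR at 31.5 and 46.8. Further genes were Kdm4c (a histone demethylase), Map1a (a neuronal microtubule protein), Ppp1r1b (DARPP-32), Smn1, Ptbp2 and Fbl (RNA-processing proteins), Cxcl14 (a chemokine), Copa and Sec63 (secretory pathway) and Hba-a1 (alpha globin, which has a near-identical copy, so its peaks are uncertain). Most of these rested on 1 peak in each Sham list. The 2 Sham peaks of Map1a, Ptbp2, Cxcl14, Copa and Sec63 did not share a base.

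**Figure D4:**
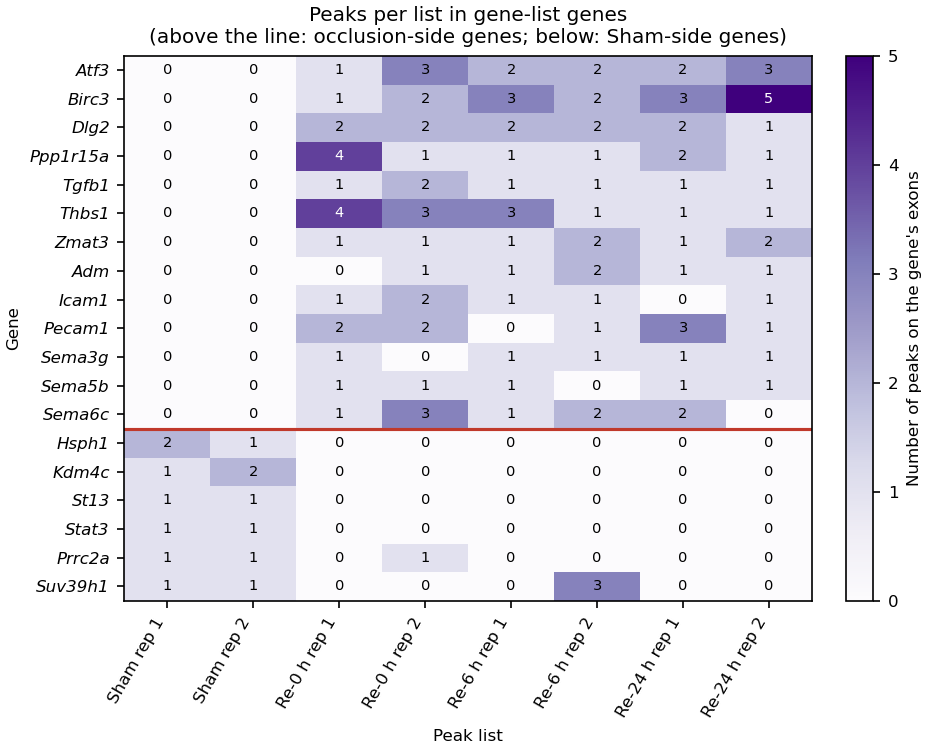
Number of peaks (colour and digits) on the exons of genes from the 12 gene lists in each of the 8 peak lists (x axis). Above the red line are genes with peaks in at least 5 occlusion lists and none in Sham, such as Atf3 with 1 to 3 peaks, and below it genes with peaks in both Sham lists and in at most 1 occlusion list, such as Stat3 with 1 and 1.

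Lists of genes (12 in all) related to stroke, synapses and m6A were read against the whole, without a test. An occlusion-side region was present in 3.57% of the 14001 genes with a peak, and a Sham-side region in 3.47%. Of the 40 immediate early and activity genes, all with a peak, 1 had an occlusion-side region (Atf3) and 1 a Sham-side region (Npas4, percentiles 23.7 and 23.2), shares of 2.5% each. Both are transcription factors with fast induction, and Npas4 had 3 and 2 peaks in Sham but 0, 0, 1, 0, 1 and 0 after occlusion.

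Among 27 heat shock and unfolded protein genes with a peak, 1 had an occlusion-side region (Eif2ak3, the PERK kinase of the unfolded protein response) and 5 had a Sham-side region (18.5%), namely Hspa1a, Hsph1, Dnajb1, St13 and Herpud1. The first 4 encode cytosolic chaperones or their partners and Herpud1 acts in the endoplasmic reticulum. The Hspa1a region, at percentiles of 64.1 and 60.5, adjoined an occlusion peak, and the gene had 3 and 3 peaks in Sham and 2, 5, 3, 3, 4 and 3 after occlusion, so it was a part of the transcript and not the gene that was unlisted. Hspa1a has a near-identical copy, Hspa1b, and its peaks rest on the reads that could be told apart.

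The lists of hypoxia and vascular genes and of axon guidance genes held more occlusion-side than Sham-side regions, though the counts are small and show no theme by themselves. Of 28 hypoxia and vascular genes with a peak, 4 had an occlusion-side region (14.3%), Adm, Tjp1, Pecam1 and Thbs1, and 1 a Sham-side region, again in Tjp1, the tight junction protein ZO-1. Of 59 axon guidance genes, 6 had an occlusion-side region (10.2%), Sema3a, Sema3g, Sema4a, Plxna2, Robo1 and Unc5d, and 2 a Sham-side region, the receptor gene Epha4 and the ligand gene Efna2. Sema3a, a repulsive guidance cue, had the highest-ranking of these, at percentiles of 97.4 and 96.7 at 0 h, 95.9 in one 6 h list, and 95.6 and 96.3 at 24 h. Re-6 h replicate 2 did not hold it, and a Sham peak lay 25 bases away. The Epha4 region was as strong on the other side, at 95.6 and 93.8 in Sham and 91.8 in Re-24 h replicate 2.

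Of 57 chromatin and histone-modifying genes with a peak, 6 had an occlusion-side region (10.5%) and 8 a Sham-side region (14%). The histone methyltransferase genes Kmt2a and Kmt2e were on both sides, and these long messages carry many peaks (Kmt2e had 8 and 4 in Sham and 6 to 11 after occlusion). Kmt2b, Kmt2c, Nsd2 and Chd7 had an occlusion-side region, and Setd5, Setdb1, Kdm4a, Kdm4c, Kat6a and Kat6b a Sham-side region. Of 48 voltage-gated ion channel genes, 0 had an occlusion-side region, and Cacna1b and Cacna1h had a Sham-side region. For 38 glutamate receptor and postsynaptic genes the numbers were 0 and 2 (Grik4 and Cacng3). With a share of only 3.57% over all genes, a count of 0 in lists of 48 and 38 genes does not set them apart. As a whole gene, Dlg2 of the second list was listed after occlusion and not in Sham.

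The remaining lists held few members. Of 28 p53 target and cell death genes, 1 had an occlusion-side region (Birc3) and 3 a Sham-side region (Bbc3, Xiap and Plk2), and of 18 ferroptosis, iron and antioxidant genes the numbers were 0 and 1 (Srxn1, sulfiredoxin). Among 24 innate immune and cytokine genes there were 1 (Icam1) and 0. Of 24 glial genes, the oligodendrocyte factor Olig2 was on the occlusion side and the astrocyte factor Sox9 on the Sham side. Of 19 m6A writer, eraser and reader genes, Elavl1 (HuR, an RNA-binding protein) was on the occlusion side and Prrc2a, an m6A reader, on the Sham side. The median difference in peaks per list, occlusion minus Sham, was 0.167 over all genes and lay between -0.167 (glutamate receptors and scaffolds) and 0.417 (hypoxia and vascular genes) in the 12 lists. Markers of other cell types bear on the endothelial members: of the endothelial genes Cldn5, Pecam1 and Flt1, Cldn5 had 1 and 1 peaks in Sham and 0 to 2 after occlusion, and Flt1 had 0 and 4 against 1 to 6. The microglial genes Cx3cr1 and P2ry12 and the astrocyte gene Aqp4 had peaks in all 8 lists, and Snap25, Syt1, Gfap and Aif1 in none, so peak lists check the tissue only in part. In bulk tissue, a change in the number of cells of a type and one in RNA per cell cannot be told apart, and the part of cell composition in these results was not tested.

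The places of the regions differed little from what other pairs of libraries gave. Of the occlusion-side regions, 47% lay in coding sequence (other pairs 42.2% to 61.4%), 35.2% in the 3' UTR (25.7% to 40.2%) and 6.25% in the 5' UTR (2.76% to 8.29%), and 22.2% were within 200 nt of the stop codon (14.3% to 26.2%). Their median exonic length was 275 nt, against 100 nt over all regions and 225 to 300 nt for the other pairs. None of the 6 features stood apart (two-sided exact permutation test, p from 0.393 to 0.679).

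Of the Sham-side regions, 61% lay in coding sequence, more than in any of the other 27 pairs (44% to 60.8%), and 23.7% in the 3' UTR, near the lower end (23.3% to 35.2%). The coding share reached the smallest possible p before adjustment but not after it (two-sided exact permutation test, p = 0.0357, Benjamini-Hochberg adjusted over 12 features p = 0.429). With lists of equal length it was 59.4% and no longer extreme (p = 0.179 in the same exact test). For the other 5 features of the Sham-side regions, p lay between 0.107 and 1 in the same exact test.

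**Figure D5:**
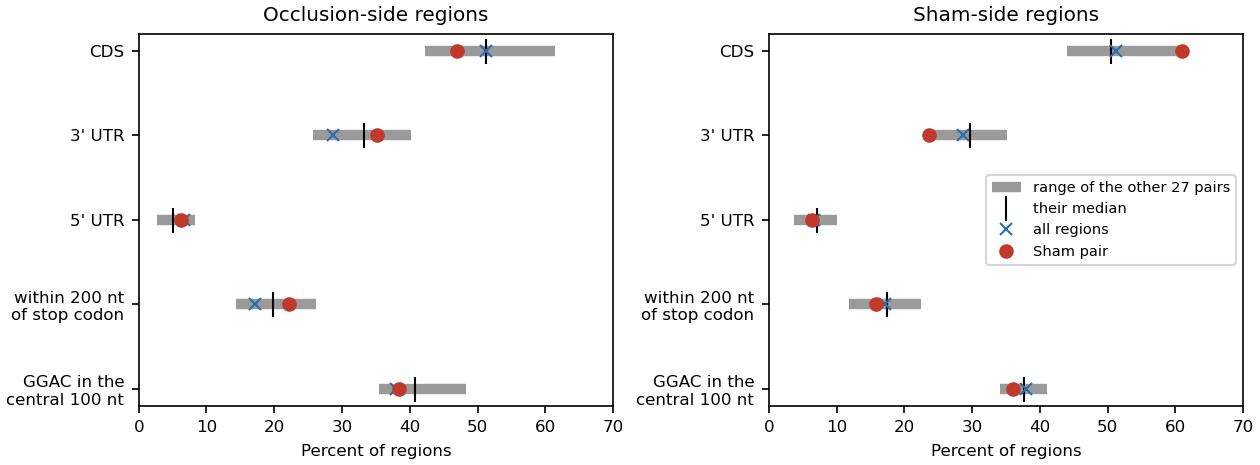
Percent of occlusion-side (left) and Sham-side (right) regions (x axis) by place in the transcript and by the motif GGAC (y axis), with the Sham pair as red points, the range of the other 27 pairs as grey bars, their median as a black tick and all regions as blue crosses. Of these, only the coding share of the Sham-side regions, at 61%, lies outside the grey range.

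A measure that the rule did not use is the rank of the regions in all 8 lists. The genes with an occlusion-side region held 275 such regions, and their percentile was, in the median, 3.39 higher in the 6 occlusion lists than in the 2 Sham lists, against 1.21 for all 4735 regions, a difference of 2.18. One other pair gave a larger difference, and the value did not exceed the spread between libraries (Sham replicate 1 with Re-0 h replicate 1; two-sided exact permutation test, p = 0.0714, chosen after the lists were seen). Without Sham replicate 1 the difference was 0.403, and without Re-0 h replicate 1 it was 2.53 with the smallest p that 21 choices allow (p = 0.0476 in the same exact test). For the 355 shared regions of the genes with a Sham-side region, the difference from all regions was -0.639 percentiles (two-sided exact permutation test, p = 0.821).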

How the data were processed

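MeRIP-seq peak lists of 8 IP libraries (2 a group) were used; the 8 input libraries were not analysed here. The authors trimmed reads with Trim Galore, aligned them to GRCm39 with HISAT2, dropped reads without a unique place using samtools, and used exomePeak2 as the peak caller. Each deposited peak carries a score of a scale that the methods do not define, here a means of ranking peaks of the same list. Without counts, depth and counting error are unknown. Exonic parts of peaks were rebuilt from GENCODE M39 exons in Python 3.11.15 (numpy 2.4.6, scipy 1.17.1, pysam 0.24.0); a peak on the exons of overlapping genes counted for each of them when whole genes were compared, and rebuilt lengths of intron-crossing peaks were multiples of 25 nt in 86.7% to 89.9% of a list. Each set was compared with the other 27 choices of 2 of 8 libraries by exact permutation. Tested on simulated peaks in 3000 genes, 200 of 200 planted occlusion-side and 199 of 200 Sham-side regions were recovered. Each simulated gene held a single site with small shifts between lists, an easier case than the real lists, where peaks lie close together. The recovery checks the code only and does not say how many unplanted genes met the rule. The leading regions were those in protein-coding genes with the most (Sham-side: fewest) occlusion lists, then by lowest percentile among the lists that held them, 15 a side; regions in genes of 12 gene lists and genes listed wholly on one side were named too. A few items are not reported here. The members, gene lists and tests were chosen with earlier results of these data known.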

Additional observations from a re-analysis of the deposited data

Results flagged for a closer look

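The median exonic length of the peaks in Re-24 h replicate 1 was 119 nt, apart from the other 5 occlusion lists, which all had 125 nt. Because those 5 lists were tied, any other value would have stood apart by the criterion used. Its usual chance of about 1 in 20 does not apply here. In the other measures of the 6 occlusion lists (peaks, genes, members held and median percentile), no library stood apart by the same criterion.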

How the results depend on the processing

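Joining on whole spans or by at least 25 shared bases left both counts within 1.5 times (525 and 524 occlusion-side, 512 and 506 Sham-side regions). Leaving out regions near an opposing peak gave 411 and 307, the higher-scoring 50% of each list 292 and 260, and lists of equal length 395 and 594. By construction, the rule of all 6 or none gave 138 and 196, that of at least 4 or at most 2 gave 1362 and 931, and genes as the unit 279 and 117. For genes, lists of equal length gave 178 and 159, the higher-scoring 50% 198 and 63, and the rule of all 6 or none 85 and 44. Leaving out one library gave 738 to 1473 occlusion-side and 606 to 5138 Sham-side regions, 367 to 865 and 147 to 676 genes, and rank differences of 0.403 to 2.53; counts rise there because fewer lists are required. The highest counts came without a Sham library.

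With a replicate block (16 choices of one library of each number), the 528 occlusion-side regions and the 279 genes were the highest counts (one-sided exact permutation test, p = 0.0625, the smallest possible), and the 518 Sham-side regions had p = 0.875 in the same exact test. The block could change no call, since its smallest p lies above the threshold of 0.05. Deviations from the group mean were hardly correlated between groups by replicate number (correlations from 0.00736 to 0.0223 over the 6 pairs of groups). The first replicate nevertheless had the shorter list in every group. No adjusted p of the 12 features crossed 0.05 in 156 alternative fits. With so few choices it could hardly do so, and it could not in the fits without a Sham library or with the block. Of the named regions, 35 of 38 occlusion-side and 41 of 42 Sham-side ones stayed in their set with lists of equal length, and 19 and 24 did with the higher-scoring 50%. With 28 choices no p can be under 0.0357, and absence from a list cannot be graded without read counts.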

Other observations

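Of the 528 occlusion-side regions, 45 lay in genes of long non-coding RNAs. In the host gene of a microRNA cluster, Mir100hg, a region (chr9:41550892-41550966) was in all 6 occlusion lists at percentiles of 95.2 and 96.8 at 0 h, 78 and 84.3 at 6 h, and 97.3 and 95.3 at 24 h. Both 6 h lists ranked it lower than the 4 others. The gene had 1 and 3 peaks elsewhere in the Sham lists, the nearest 7335 exonic bases away. Jpx, a non-coding RNA gene of the X inactivation centre, had a region (chrX:102573416-102573490) in all 6 lists at percentiles from 33.5 to 79.3. Both genes were picked out after their values were seen. Of the 518 Sham-side regions, 27 lay in such genes.

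Genes of cilia were also among those with a peak in all 6 occlusion lists and none in Sham. Cfap251 had 4, 2, 4, 2, 2 and 2 peaks, Cfap46 had 1, 1, 3, 2, 1 and 2, and Iqub had 1 in each list. The Iqub peaks ranked low, at percentiles of 1.11 to 25.4, and shared no stretch in more than 2 lists. Those of Cfap251 reached 77.8. Genes of cilia were on the other side too. Tulp3 had 1 and 1 peaks in Sham and none after occlusion, and Cfap99 had 1 and 1 in Sham and 1 in Re-24 h replicate 2. This group was formed after the values were seen, its share among all genes was not counted, and it was not tested.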
